A study of Mus musculus with 33 samples.

Results

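The newborn tongue was compared between mice that express Zac1 from both alleles and wild type mice, with 3 whole-tongue libraries of each genotype taken on postnatal day 0. These 6 libraries are 6 of the 33 samples of the series, and the genes described are the 12489 of 27825 listed genes that reached 1 RPM (reads scaled to a common library size, with no length correction) in at least 3 of the 6. The biallelic animals are named in the labels as Zac1o knockout mice with biallelic Zac1 expression, and their columns carry the ending Zac1LOM, while wild type columns end in Zac1MOI. The same genotypes were sampled in the embryo at E13.5 and on postnatal day 20 (P20), with 3 libraries per genotype at each stage. No label used here gives the strain background, litter or sex. The tables hold the numbered chromosomes only, so sex was not checked. The labels call the 3 libraries of a genotype biological replicates but do not say whether they came from separate litters.

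Zac1, listed as Plagl1, encodes a zinc finger transcription factor that can halt the cell cycle and that regulates a set of other imprinted genes. It is itself imprinted: in most tissues the maternal copy is silenced by methylation of its promoter and only the paternal copy is transcribed. Animals in which that silencing is lost carry an extra active dose of an otherwise intact gene, a state known in people with transient neonatal diabetes. The newborn tongue is mostly striated muscle, wrapped in a stratified epithelium and threaded with fibroblasts, vessels and nerves. Its muscle is changing from embryonic and neonatal myosins to adult fast myosins around birth.

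Plagl1 and its neighbour Phactr2 were the only genes past the threshold, an adjusted p under 0.05 in limma, a linear model fitted to all 12489 genes (2 genes, percent called 0.016). Plagl1 (ENSMUSG00000019817, chromosome 10, 13090691 to 13131694 on GRCm38) stood at 242.8, 229.7 and 221.0 RPM in wild type replicates 1 to 3. In biallelic replicates 1 to 3 it stood at 490.0, 429.6 and 499.3 RPM. The groups did not overlap, and each genotype was tight, with a lowest biallelic value far above the highest wild type value. Plagl1 rose by 1.03 on the log2 scale (SE 0.10, limma adjusted p = 0.0469, n = 3 per genotype), which is the direction that its label states.

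Phactr2 (ENSMUSG00000062866, chromosome 10, 13207717 to 13474396) encodes a protein that binds actin and protein phosphatase 1. Its levels were 105.6, 98.2 and 131.9 RPM in wild type replicates 1 to 3 and 45.8, 43.5 and 45.8 RPM in the biallelic ones. All 3 biallelic values were within a narrow band below every wild type value. Phactr2 fell by 1.30 on the log2 scale (SE 0.12, limma adjusted p = 0.0469, n = 3 per genotype). Both calls sat close to the threshold: limma's voom on the recovered reads gave both genes an adjusted p of 0.0534, and leaving out single libraries gave 0 to 4 called genes.

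The promoter sequences of Plagl1, Phactr2 and Slc7a10 are shown because Plagl1 is the gene whose dose differs, Phactr2 is the other called gene, and Slc7a10 had the highest log2 fold change of all tested genes. Each run is the 250 bases before the RefSeq start on GRCm38.p6, read 5′ to 3′ on the gene's strand. The windows are chr10:13090582-13090831 on the plus strand for Plagl1, chr10:13324290-13324539 on the minus strand for Phactr2, and chr7:35186135-35186384 on the plus strand for Slc7a10. The Plagl1 and Phactr2 starts lie inside the spans listed for those genes, so the end of the Plagl1 window and all of the Phactr2 window overlap the listed gene. Capitals mark GGGGCCCC, a palindrome reported as a binding sequence of Zac1.
Plagl1: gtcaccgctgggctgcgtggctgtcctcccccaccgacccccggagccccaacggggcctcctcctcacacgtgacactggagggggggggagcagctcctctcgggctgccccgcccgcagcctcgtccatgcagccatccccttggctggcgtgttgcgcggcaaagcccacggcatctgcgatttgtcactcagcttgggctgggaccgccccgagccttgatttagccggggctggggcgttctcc
Phactr2: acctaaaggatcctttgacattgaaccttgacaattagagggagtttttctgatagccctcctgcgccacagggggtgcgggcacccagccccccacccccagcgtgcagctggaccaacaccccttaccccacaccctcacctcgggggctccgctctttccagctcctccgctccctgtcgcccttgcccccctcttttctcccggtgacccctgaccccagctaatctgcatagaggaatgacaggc
Slc7a10: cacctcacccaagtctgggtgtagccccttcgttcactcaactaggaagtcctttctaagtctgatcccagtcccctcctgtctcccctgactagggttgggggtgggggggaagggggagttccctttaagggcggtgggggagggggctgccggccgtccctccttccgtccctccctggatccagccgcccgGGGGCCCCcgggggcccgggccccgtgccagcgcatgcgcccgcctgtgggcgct
The Slc7a10 window held 1 match of GGGGCCCC, and the letters were not in the Plagl1 or the Phactr2 window. Of 32851 promoter windows of this length in the RefSeq table, 0.889% held the same letters. The shorter GGGGCCC, searched on both strands with overlaps, including those inside GGGGCCCC, was found 4 times in the Slc7a10 window. A match is a run of letters and was not tested as a binding site.

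**Figure D1:**
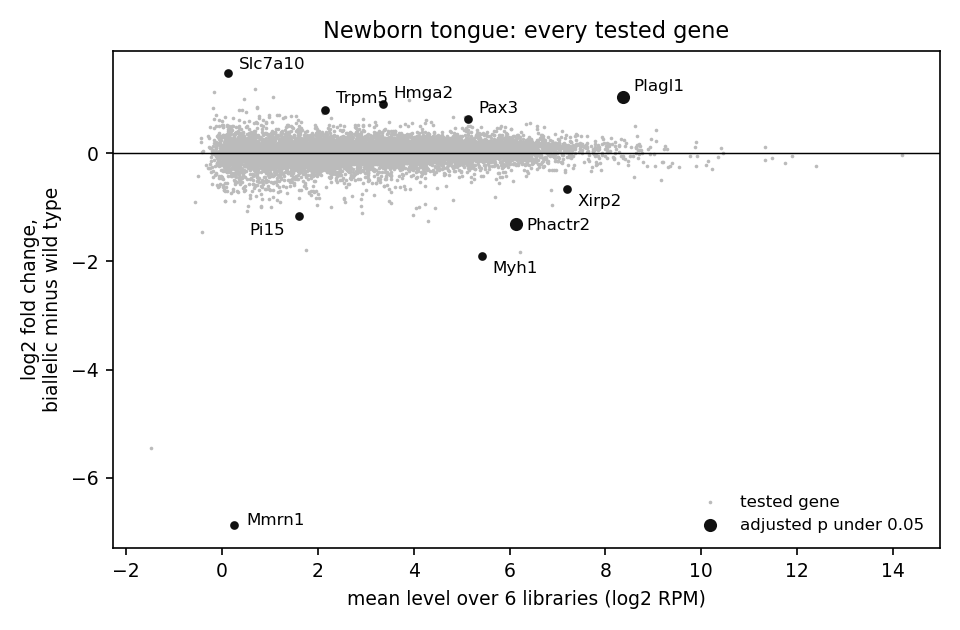
Each grey point is 1 of the 12489 tested genes, with its mean level over 6 libraries in log2 RPM on the x axis and the log2 fold change, biallelic minus wild type, on the y axis. The large black points are Plagl1 (1.03) and Phactr2 (-1.30), past an adjusted p of 0.05, and small black points are named genes that did not pass it. Mmrn1 lies far below the other named genes, with reads in 1 of 3 biallelic libraries.

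Differences across the rest of the transcriptome were small. The median absolute log2 fold change was 0.10, and 22 genes differed by 1 or more. After Plagl1 and Phactr2, the smallest limma adjusted p was 0.601 (Trpm5), and every further gene had an adjusted p of at least 0.9998. At an unadjusted p under 0.05 there were 412 genes (percent called 3.3), 249 with higher means in the biallelic tongues (percent called 1.99) and 163 with lower means (percent called 1.31). That split depended on scaling, since centring each library on its median gave 180 higher and 228 lower and quantile normalization 204 and 221. It also depended on single libraries: the 412 became 161 without wild type replicate 1, 183 without biallelic replicate 3 and 944 (661 higher, 283 lower) without wild type replicate 3, and the split turned to 278 higher and 306 lower without wild type replicate 2. Apart from Plagl1 and Phactr2, the genes named from here on did not pass the threshold, and their values are descriptions of these 6 libraries.

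Read totals behind the RPM values ran from 48336734 to 92249098, and 3 reads, the most that a count of 0 allows, equalled 0.0325 to 0.0621 RPM (counting error only). Wild type replicate 2 and biallelic replicate 1 stood apart from the other 4 libraries on the first principal component, which held 54.1% of the variance: they scored 29.0 and 27.96, and the others -20.5 to -7.05. The clock genes Per1 and Per2 showed this pairing across genotypes. Per1 was at 74.7 RPM in wild type replicate 2 and 81.2 RPM in biallelic replicate 1, against 16.3 to 31.3 RPM in the other 4 libraries. Klf15, a glucocorticoid-induced factor of muscle metabolism, was at 18.1 and 15.5 RPM in the same 2 libraries and at 2.32 to 5.28 RPM in the others. Angptl4, a secreted inhibitor of lipoprotein lipase, was low in both, at 3.29 and 1.24 RPM against 9.03 to 14.6 RPM. Because each genotype holds 1 of these libraries, counts for the leading gene lists are also given without both. Summed muscle markers, 6 genes with Acta1 and Ckm among them, reached 9100 to 10174 RPM in the biallelic and 9222 to 12519 RPM in the wild type tongues. The 6 epithelial markers summed to 1856 to 2625 and 2145 to 2767 RPM, and the 5 fibroblast markers to 2161 to 2550 and 2256 to 2486 RPM. Markers of the 3 main tissues of a tongue were thus present in every library, and each sum overlapped between genotypes. Markers of bone, heart, brain and adipocytes summed to at most 1.45 RPM in every library. Alb, the liver marker, had 226, 15 and 25 reads in biallelic replicates 1 to 3 and 0, 15 and 585 in the wild type ones.

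**Figure D2:**
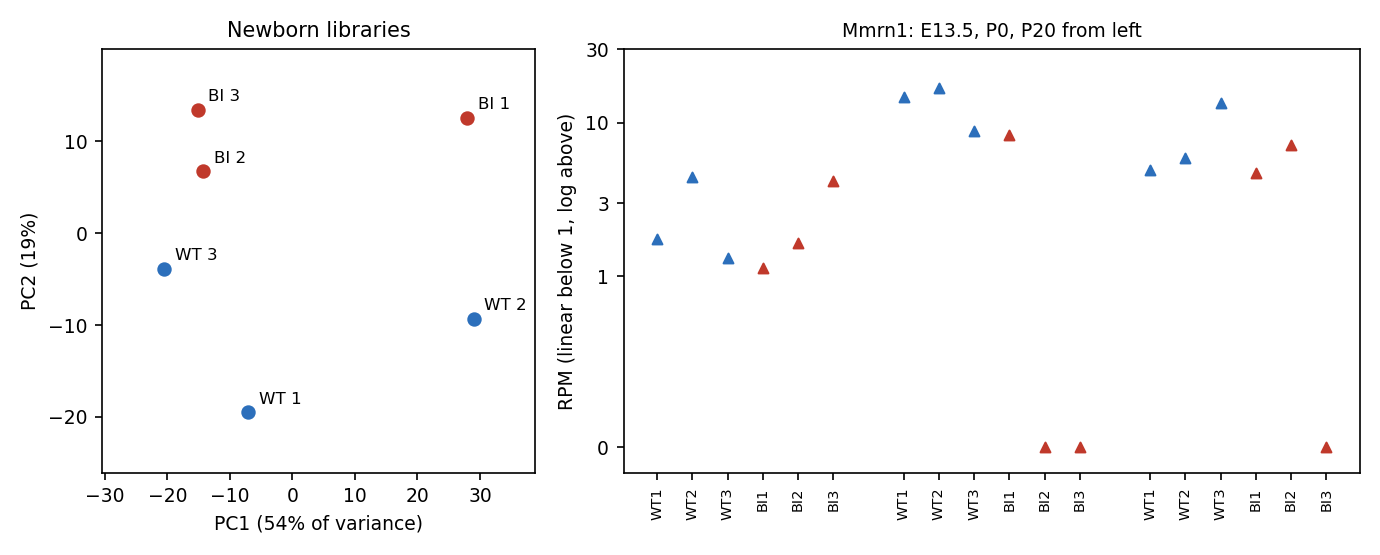
Left, the first and second principal components of the 6 newborn libraries (wild type blue, biallelic red), where WT 2 and BI 1 lie to the right at 29.0 and 27.96 and the other 4 at -20.5 to -7.05. Right, RPM of Mmrn1 in all 18 tongue libraries on an axis that is linear below 1 and logarithmic above; the gene is at 0 in newborn BI2 and BI3 and in BI3 at P20.

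Mmrn1 had the lowest log2 fold change of all tested genes, and single libraries set it. It encodes multimerin of platelets and lymphatic endothelium and lies on chromosome 6 from 60924976 to 60989378. It had 900, 1190 and 808 reads in wild type replicates 1 to 3 and 400, 0 and 0 in the biallelic ones. The gene was therefore without reads in 2 biallelic libraries, where 0 allows up to 3 reads, and well measured in the third. The log2 fold change was -6.87, which depends on the 0.9 reads that stand for 0, and limma's adjusted p was 0.9998. Without biallelic replicate 1 limma called 2 genes, Mmrn1 among them (adjusted p = 0.000272), and Plagl1 and Phactr2 then had adjusted p-values of 0.219 and 0.207. Differences of strain background between the libraries were not tested, since no label used here names the strain.

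The stretch of chromosome 10 around Plagl1 was lower in several genes besides Phactr2. Of 21 genes listed for this stretch, from Stxbp5 to Cited2, 19 were tested, Phactr2 among them. Lower means were found for 12 of the 19 (63.2%, against 39.3% of all tested genes) and higher means for 7. The median log2 fold change was -0.13 against 0.04 for all tested genes. At an unadjusted p under 0.05, 5 of the 19, Phactr2 included, were lower (26.3%, against 1.31% of all tested genes) and 0 higher. Fuca2, a secreted fucosidase at 13499540 to 13519035, was at 7.82, 9.03 and 6.94 RPM in wild type replicates 1 to 3 and at 5.03, 4.25 and 3.94 RPM in the biallelic ones. Its groups did not overlap (log2 fold change -0.85, SE 0.15, limma unadjusted p = 0.000619). Pex3, a peroxisome assembly factor at 13523842 to 13553142, was at 10.7, 11.3 and 9.32 RPM in wild type and at 8.07, 7.68 and 7.58 RPM in biallelic libraries (-0.42). Ltv1, needed for small ribosomal subunit assembly, lies between Plagl1 and Phactr2 at 13178640 to 13193137. It differed by -0.35, with overlapping groups. On the other side of Plagl1, Utrn, the dystrophin relative, differed by 0.03 and Sf3b5, a splicing factor, by -0.13. Leaving out 1 library at a time moved the median of the 19 between -0.17 and -0.02 (without biallelic replicate 3; -0.04 without wild type replicate 1), and it was -0.22 without both libraries that stood apart.

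Over all tested genes, 728 had 3 biallelic values above all 3 wild type values (percent called 5.83) and 383 had them below (percent called 3.07). Slc7a10, a carrier of small neutral amino acids such as serine, was at 1.09, 0.509 and 0.509 RPM in wild type replicates 1 to 3. In biallelic replicates 1 to 3 it was at 2.36, 1.59 and 1.61 RPM. Replicate 1 was highest in both groups, and the groups did not overlap (log2 fold change 1.47, SE 0.35, limma unadjusted p = 0.00342). Adipoq and Plin1, which mark adipocytes and whose tissue is a known site of Slc7a10, had 0 to 5 reads in every library.

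Trpm5, the cation channel of taste receptor cells, had the smallest p after the called genes. It was at 3.34, 3.39 and 3.38 RPM in wild type and at 6.02, 5.67 and 5.93 RPM in biallelic replicates 1 to 3, with very little spread in either group. The log2 fold change was 0.80 (SE 0.11, limma adjusted p = 0.601). The other taste markers were near the limit, at 0.141 to 0.284 RPM for Gnat3, the taste G protein, and 0.517 to 0.704 RPM for Plcb2, the phospholipase downstream of it, and both overlapped between genotypes. Ctla4, an inhibitory receptor of T cells, was at 0.682, 0.608 and 0.542 RPM in wild type and at 1.49, 1.35 and 1.16 RPM in biallelic libraries (1.12). It passed the filter of 1 RPM through the biallelic libraries only, so its lack of overlap follows from the filter. Cd3e, which defines T cells, had 0 to 4 reads in every library.

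Hmga2, a chromatin protein of growing fetal tissue, was at 5.66, 7.47 and 10.1 RPM in wild type and at 15.3, 13.3 and 13.9 RPM in biallelic replicates 1 to 3. Its lowest biallelic value lay above the highest wild type one (log2 fold change 0.91, SE 0.20). Alx4 and Alx1, homeobox factors of craniofacial mesenchyme, differed by 0.54 and 0.71, both without overlap. Col9a2, a chain of the type IX collagen of cartilage, was at 1.20, 1.58 and 1.64 RPM against 3.41, 2.84 and 2.79 RPM (1.04). Of 33 listed cartilage genes, 11 were tested and 9 of these, Col9a2 included, had higher means (81.8%, against 60.7% of all tested genes). The median of the 11 was 0.10 and ranged from -0.04 (without wild type replicate 2) to 0.25 (without wild type replicate 3). Defining cartilage markers were low and overlapped between genotypes: Acan was at 0.931 to 1.48 RPM in biallelic and 0.933 to 1.67 RPM in wild type tongues, and Col2a1 at 0.359 to 0.497 and 0.341 to 2.21 RPM. The other genes of this group were Arsb, a lysosomal sulfatase (0.50), Slc24a4, a sodium, calcium and potassium exchanger (0.83), Cybrd1, a ferric reductase (0.57), and Col24a1, a fibrillar collagen (0.45). Among abundant genes, those above a mean of 4 log2 RPM, the signalling protein Bmp6 (0.66), the giant cadherin Fat3 (0.61) and the synaptic adhesion protein Nlgn1 (0.55) had non-overlapping groups as well.

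**Figure D3:**
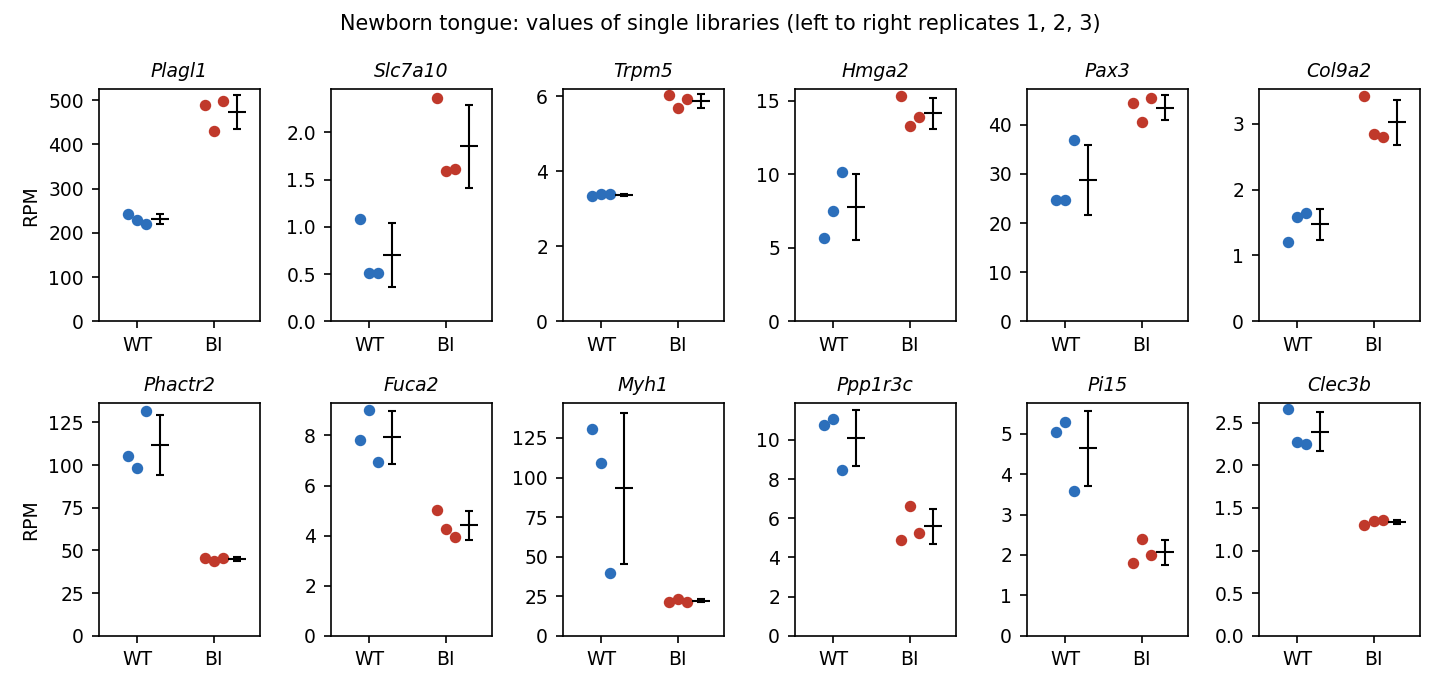
RPM of 12 named genes in the 3 wild type (WT, blue) and 3 biallelic (BI, red) newborn libraries, with the mean and SD of each group as a black bar beside the points; every axis starts at 0. The upper row holds genes higher in the biallelic tongues, such as Plagl1 (429.6 to 499.3 against 221.0 to 242.8 RPM), and the lower row genes lower there, such as Phactr2 (43.5 to 45.8 against 98.2 to 131.9 RPM). Wild type replicate 3 is the nearest to the biallelic values for Hmga2, Pax3 and Myh1.

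Genes of adult fast muscle fibres had lower means in the biallelic tongues. All 22 tested members of the fast fibre list were below wild type, where 39.3% of all tested genes were, with a median log2 fold change of -0.27 against 0.04. At an unadjusted p under 0.05, 5 members were lower (22.7%, against 1.31% of all tested genes) and 0 higher. Myh1, the type IIx myosin heavy chain, was at 130.9, 109.2 and 39.6 RPM in wild type replicates 1 to 3 and at 21.5, 23.2 and 21.6 RPM in biallelic ones. The biallelic libraries were nearly equal, while wild type replicate 3 lay nearer to them than to its own group (log2 fold change -1.91, SE 0.40, limma unadjusted p = 0.00156). Myh4, the type IIb myosin, was at 205, 220.0 and 101 RPM in wild type and at 97.7, 99.3 and 62.6 RPM in biallelic libraries (-0.97). Myh2, the type IIa myosin, differed by -1.003 with overlapping groups, as did the calcium buffer Pvalb (-1.26) and the fast myosin-binding protein Mybpc2 (-0.81). These 3 values rested on single wild type libraries: without replicate 2 they were -0.55, -0.77 and -0.44, and without replicate 3 they were -1.82, -1.71 and -1.16. Casq1, the calcium store protein of fast fibres, differed by -0.31 without overlap.

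The mean level of the 22 fast fibre genes was 7.21, 7.59 and 6.70 log2 RPM in wild type replicates 1 to 3 and 6.83, 6.73 and 6.48 log2 RPM in biallelic ones, so wild type replicate 3 lay inside the biallelic range. Without that library, limma called 4 genes: Myh1, Myh2, Phactr2 and Eef1a2, a translation factor of mature muscle (-0.87 with all libraries). Leaving out any 1 library kept at least 20 of the 22 below wild type, and 20 were below it without both libraries that stood apart (median -0.21). The list's median was -0.17 without wild type replicate 2 and -0.42 without wild type replicate 3. In a whole tongue, fewer cells of a type and less RNA per cell cannot be told apart.

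Slow fibre and embryonic muscle genes went both ways. Of 15 tested slow and cardiac fibre genes, 7 had higher and 8 lower means (median -0.05). Tnni1, the slow troponin I that embryonic fibres also use, was at 26.2, 31.8 and 33.0 RPM in wild type and at 47.4, 43.5 and 38.0 RPM in biallelic libraries (0.50). Tnnt2, the cardiac and embryonic troponin T, differed by 0.48, and myoglobin (Mb) by -1.15. Myh3, the embryonic myosin, was at 254.6, 360.2 and 391.5 RPM in wild type and at 511, 474 and 427 RPM in biallelic tongues (0.51, limma unadjusted p = 0.0171), without overlap. Of the 23 developmental myosins and sarcomere scaffold genes, 18 had lower means (78.3%, against 39.3% of all tested genes). Xirp2, an actin-binding protein of muscle ends and intercalated discs, was at 236, 177 and 155 RPM against 112, 128 and 112 RPM (-0.67), and Tcap, the titin cap, differed by -0.64. So Myh3, Tnni1 and Tnnt2 were higher while Xirp2, Tcap and Mb were lower, each without overlap.

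Myogenic regulators stood near the background, with 18 of 28 higher (64.3%, against 60.7% of all tested genes, and a median of 0.04 for both). At an unadjusted p under 0.05, 4 of them were higher (14.3%, against 1.99% of all tested genes) and 0 lower. Pax3, the transcription factor of muscle progenitors, was at 24.7, 24.6 and 37.0 RPM in wild type and at 44.5, 40.6 and 45.4 RPM in biallelic replicates 1 to 3. The groups did not overlap (log2 fold change 0.62, SE 0.17), with wild type replicate 3 again nearest to the biallelic values. Megf10, a receptor of satellite cells, differed by 0.37, the differentiation factor Myog by 0.34 and the fusion protein Tmem8c (myomaker) by 0.27. At the nerve-muscle contact, the fetal acetylcholine receptor subunit Chrng differed by 0.25 and the adult subunit Chrne by -0.48. Their limma unadjusted p-values were 0.0933 and 0.0905. Chrng did not overlap between genotypes. Chrne reached 1 RPM in the wild type libraries only, so its lack of overlap follows from the filter. Across the 25 tested calcium handling and junction genes, 10 were higher and 15 lower (median -0.08).

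Energy genes of muscle were lower with the fast fibre genes. Of 19 tested muscle energy and glycogen genes, 17 had lower means (89.5%, against 39.3% of all tested genes, median -0.20). At an unadjusted p under 0.05, 6 were lower (31.6%, against 1.31% of all tested genes) and 0 higher. Ppp1r3c, the phosphatase subunit that targets glycogen, was at 10.8, 11.1 and 8.47 RPM in wild type and at 4.90, 6.62 and 5.25 RPM in biallelic replicates 1 to 3 (-0.86). Ugp2, which makes UDP-glucose, differed by -0.32, and the muscle phosphofructokinase Pfkm by -0.34, each without overlap. Of 25 nuclear-encoded respiratory chain genes, 23 were lower (92.0%, against 39.3% of all tested genes, median -0.19). For 10 of them the groups did not overlap, against 3.07% of all tested genes with lower, non-overlapping values. Cox7a1, the muscle form of a cytochrome oxidase subunit, was at 19.1, 19.7 and 13.49 RPM against 10.7, 12.1 and 11.2 RPM (-0.60). The ATP synthase genes Atp5g1 and Atp5b differed by -0.27 and -0.24. Without both libraries that stood apart, 17 of 19 energy and 25 of 25 respiratory chain genes were lower, with medians of -0.16 and -0.16. Leaving out single libraries moved the medians between -0.30 and -0.17 for the energy genes and between -0.26 and -0.12 (without wild type replicate 1) for the respiratory chain genes. The fatty acid list had 24 of 28 genes lower (85.7%, against 39.3% of all tested genes, median -0.17, Lpl -0.30). However, leaving out single libraries moved that median between -0.28 and 0.03. The muscle marker sum given above was highest in wild type replicate 2 and its part in these values was not tested.

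**Figure D4:**
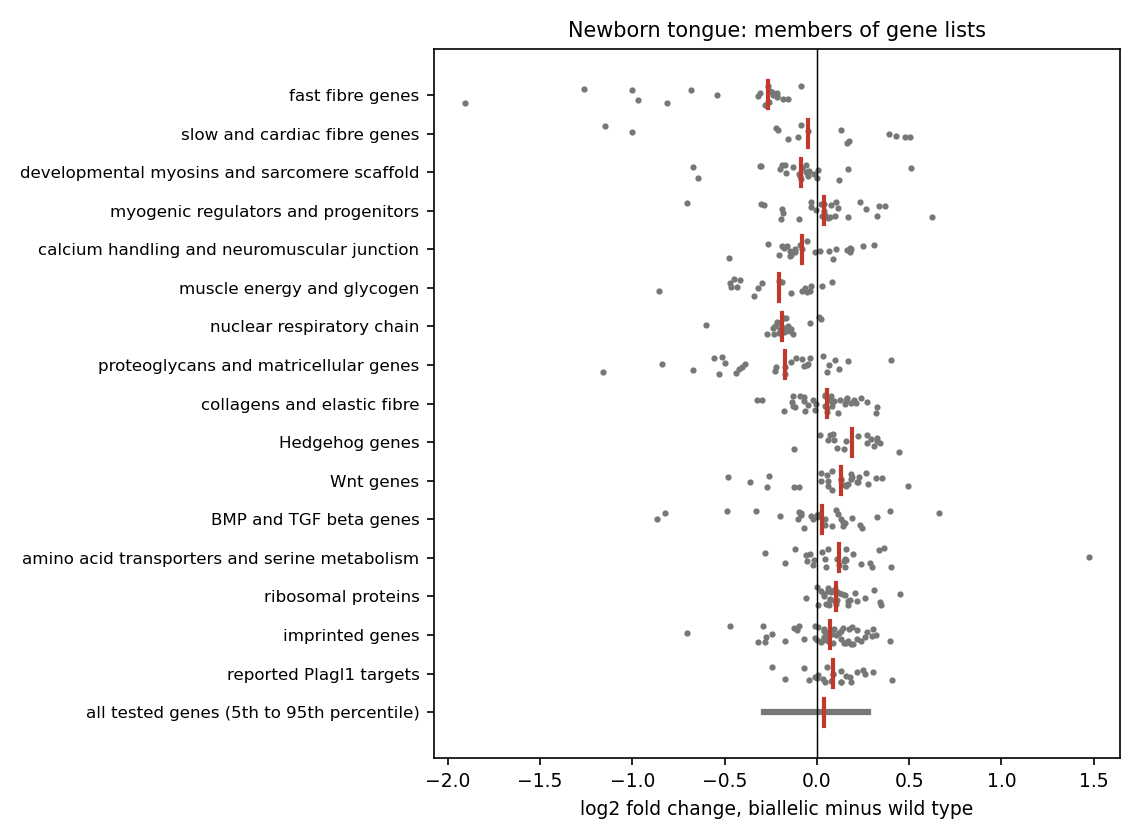
Each grey point is the log2 fold change, biallelic minus wild type, of 1 tested member of the gene list named on the left, and red bars are list medians. The grey bar at the bottom spans the 5th to 95th percentile of all 12489 tested genes, whose median is 0.04. The fast fibre, energy and respiratory chain lists lie mostly to the left of 0 (medians -0.27, -0.20 and -0.19) and the Hedgehog list mostly to the right (0.19).

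The matrix differed by class. Collagens and elastic fibre genes were near the background, with 22 of 37 higher (59.5%, median 0.05), among them the microfibril genes Fbn2 (0.32) and Mfap2 (0.33) without overlap. Proteoglycans and matricellular genes had 22 of 29 lower (75.9%, against 39.3% of all tested genes, median -0.17). At an unadjusted p under 0.05, 5 were lower (17.2%, against 1.31% of all tested genes) and 0 higher. Pi15, a secreted peptidase inhibitor, was at 5.05, 5.30 and 3.58 RPM in wild type and at 1.80, 2.39 and 1.99 RPM in biallelic replicates 1 to 3 (-1.16, SE 0.20). Clec3b (tetranectin), which binds plasminogen, was at 2.66, 2.27 and 2.25 RPM against 1.30, 1.35 and 1.36 RPM (-0.84). Cilp, an inhibitor of TGF beta and IGF signalling in matrix, differed by -0.56, and the keratan sulfate proteoglycan Lum by -0.53 with overlapping groups. Other lower genes of the extracellular space were Serping1, the C1 inhibitor (-0.59), Mmp19, a matrix protease (-0.68), and Itih5, which binds hyaluronan (-0.43). The list had 25 of 29 genes lower without both libraries that stood apart, and its median ranged from -0.10 (without wild type replicate 1) to -0.24 (without wild type replicate 3).

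Of 18 tested Hedgehog genes, 17 had higher means, where 60.7% of all tested genes did, with a median of 0.19 (0.12 without biallelic replicate 3), and 17 were also higher without both libraries that stood apart. The receptor Ptch1 differed by 0.22 and the transcription factors Gli1, Gli2 and Gli3 by 0.27, 0.27 and 0.30. Gli3 was at 57.2, 51.0 and 63.8 RPM in wild type and at 71.1, 69.6 and 69.6 RPM in biallelic replicates 1 to 3, without overlap (limma unadjusted p = 0.0225). The forkhead factors Foxf2 and Foxd1, which mark facial mesenchyme, differed by 0.33 and 0.44. The ligands of the pathway were not among the 18. Of 29 Wnt genes 23 were higher (79.3%, against 60.7% of all tested genes, median 0.13). At an unadjusted p under 0.05, only the Wnt5a receptor Ror2 was higher (26.0, 26.4 and 37.2 against 39.3, 41.3 and 44.0 RPM, 0.50) and the secreted inhibitor Sfrp4 lower (-0.36). Leaving out single libraries left 17 to 23 of the 29 higher, with a median of 0.03 without wild type replicate 2 and 0.20 without biallelic replicate 1.

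The BMP and TGF beta genes did not lean one way, with 18 of 30 higher and 12 lower (median 0.03). Bmp6 was at 15.3, 28.3 and 26.0 RPM against 38.7, 32.8 and 35.1 RPM (0.66), and Bmp7 differed by 0.40. Both ligands were thus higher in the biallelic tongues, each without overlap between genotypes. In the insulin and IGF list, 16 of 27 genes were higher (59.3%, against 60.7% of all tested genes, median 0.05). Besides Hmga2, its members of smallest p were the secreted hormone Stc1 (-0.54) and the IGF-binding protein Igfbp6 (-0.31), while Igf2 differed by 0.01.

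Slc7a10 was the far member of its list, amino acid transporters and serine metabolism. In this list 19 of 27 genes were higher (70.4%, against 60.7% of all tested genes), with a median of 0.12 (0.07 without biallelic replicate 1). At an unadjusted p under 0.05, 4 were higher (14.8%, against 1.99% of all tested genes) and 0 lower. Shmt1, which interconverts serine and glycine, was at 5.89, 6.71 and 6.48 RPM in wild type and at 7.65, 7.77 and 7.84 RPM in biallelic tongues (0.29). The glutamine carrier Slc38a1 differed by 0.24, both without overlap. Ribosomal protein genes were higher by small steps, 33 of 34 (97.1%, against 60.7% of all tested genes) with a median of 0.10, and 30 of 34 after median centring. Rps27 was at 3.60, 4.27 and 4.36 RPM against 6.17, 5.75 and 4.80 RPM (0.45). Without both libraries that stood apart 27 of the 34 were higher and the median was 0.04, against 0.0041 for all tested genes in that setting. The median was also 0.04 without biallelic replicate 1 alone and 0.16 without biallelic replicate 3. Cell cycle genes were sensitive to those 2 libraries: 21 of 35 were higher (median 0.09), and without them 10 were (median -0.11).

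Imprinted genes other than Plagl1 and listed targets of Plagl1 differed little. Of 52 tested imprinted genes, 38 were higher (73.1%, against 60.7% of all tested genes) and 14 lower. Their median was 0.07, against 0.04 for all tested genes (0.05 without wild type replicate 2 and 0.12 without wild type replicate 3). After median centring 35 of the 52 were higher, with a median of 0.04. Dlk1, a paternally expressed growth regulator, was at 226, 246 and 211 RPM in wild type and at 285, 244 and 289.5 RPM in biallelic libraries, with overlap (0.26). Grb10, which restrains insulin signalling, was at 455, 527 and 498 RPM against 589, 577 and 552 RPM, without overlap (0.22, limma unadjusted p = 0.0493). Magel2, a paternally expressed gene of the Prader-Willi region, differed by 0.30 and Qpct, a glutaminyl cyclase, by -0.47. The 24 tested targets named in other studies share 14 genes with the imprinted list. Of these 24, 18 were higher (75.0%, against 60.7% of all tested genes, median 0.09). Among the 18 were Bmf, which promotes apoptosis (0.40), and the cell cycle inhibitors Cdkn1a (0.18) and Cdkn1c (0.19). H19 differed by -0.24. The related factors Plag1 and Plagl2 differed by 0.26 and 0.18.

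Epithelial, vascular and immune genes gave few differences. Of 29 keratin and epithelial genes 21 had lower means (72.4%, against 39.3% of all tested genes, median -0.07). Leaving out single libraries moved that median between -0.20 and 0.03. Krt10, a keratin of differentiated epithelium, was at 8.42, 10.0 and 5.29 RPM in biallelic and at 12.1, 10.6 and 11.2 RPM in wild type replicates 1 to 3 (-0.56), and Pitx1, an oral ectoderm factor, differed by 0.26. Endothelial genes were split, 14 higher and 11 lower, with the lymphatic receptor Flt4 (0.27) and the vessel protein Plvap (0.45) higher and the junction protein Cldn5 lower (-0.31). Of 16 macrophage and neutrophil genes, 15 had lower means (93.75%, against 39.3% of all tested genes, median -0.17) and 0 reached an unadjusted p under 0.05. Without both libraries that stood apart 9 of the 16 were lower (median -0.02). Immediate early genes, which respond to handling and stress, were lower in 19 of 25 (76.0%, against 39.3% of all tested genes). Their median was -0.23 (Dusp1 -0.63, Egr1 -0.50). Their mean level was 2.73, 3.39 and 3.16 log2 RPM in wild type and 3.29, 2.71 and 2.45 log2 RPM in biallelic replicates 1 to 3, so the groups overlapped. The median ranged from -0.40 without wild type replicate 1 to -0.06 without wild type replicate 2 and -0.04 without biallelic replicate 3.

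To ask whether the genotype difference at birth departed from those at E13.5 and P20, the 18 tongue libraries were fitted together over 10929 genes that passed the same filter at all 3 stages. RNA was extracted with another kit at E13.5, so stage and kit cannot be told apart, although each difference is taken within a stage first. Limma called 0 genes in either contrast (percent called 0). At an unadjusted p under 0.05 there were 583 genes (percent called 5.33) for P0 minus E13.5 and 155 (percent called 1.42) for P0 minus P20. Plagl1 differed between genotypes by 1.20 at E13.5, 1.03 at P0 and 1.30 at P20, and neither contrast was called (limma adjusted p = 0.967 for P0 minus E13.5 and 0.999996 for P0 minus P20).

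Phactr2 came closest to a stage difference. At E13.5 it was at 34.2, 41.8 and 42.1 RPM in wild type and 22.6, 23.3 and 19.7 RPM in biallelic libraries, and at P20 at 73.1, 74.8 and 73.4 RPM against 60.9, 63.3 and 59.9 RPM. The groups were separate at each stage, with log2 fold changes of -0.85, -1.30 and -0.27 at E13.5, P0 and P20. P0 minus P20 was -1.04 (SE 0.16, limma adjusted p = 0.0694) and P0 minus E13.5 was -0.46 (SE 0.16, adjusted p = 0.901). The first was called with the filter at 5 RPM, with median centring and without newborn wild type replicate 2.

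Slc7a10 differed in 1 direction at each stage, by 1.79 at E13.5, 1.47 at P0 and 2.12 at P20, with limma adjusted p-values of 0.966 and 0.999996 for the same 2 contrasts. Frem1, a basement membrane protein of epithelium, was higher in the newborn biallelic tongue (42.0, 47.7 and 50.7 against 31.7, 32.5 and 40.9 RPM, 0.42) and differed by -0.38 at E13.5 and -0.28 at P20. Tiam2, an activator of Rac, differed by -0.60 at E13.5 and 0.27 at P0. Col24a1 differed by 0.45 at P0 and -0.45 at P20. Myh3 differed by 0.51 at P0 and -1.92 at P20, where its level was only 0.647 to 11.7 RPM, and Dlk1 by 0.26 and 1.88, higher in the biallelic tongues at both. Limma's adjusted p was 0.901 for P0 minus E13.5 of Frem1 and Tiam2, and 0.999996 for P0 minus P20 of Frem1, Col24a1, Myh3 and Dlk1.

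**Figure D5:**
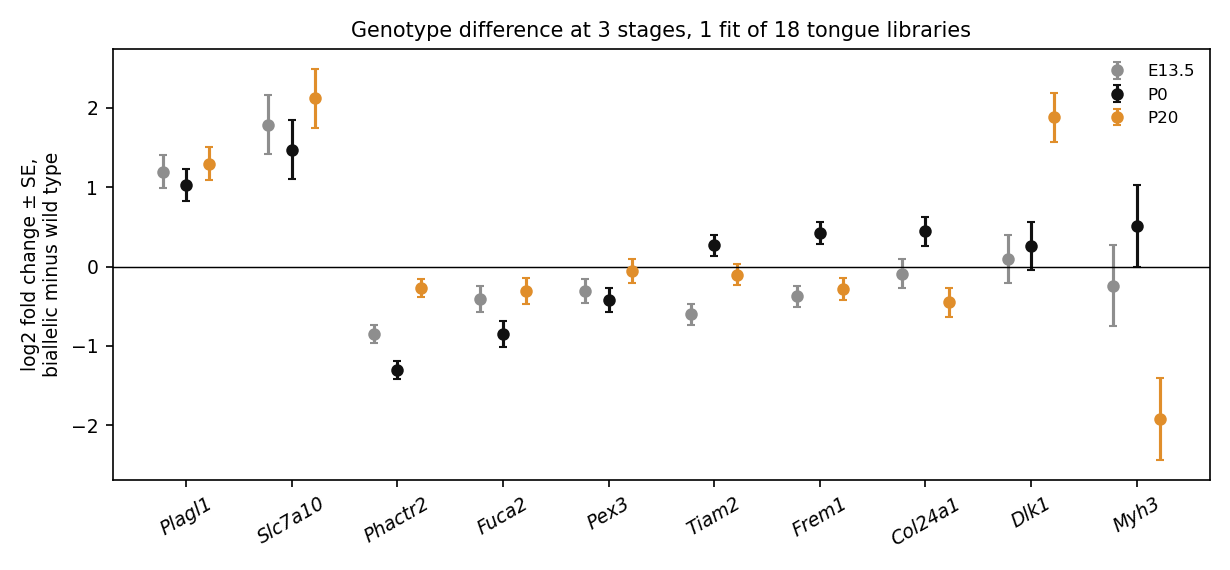
Log2 fold change, biallelic minus wild type, of 10 genes at E13.5 (grey), P0 (black) and P20 (orange), from 1 fit of 18 tongue libraries; bars are SE. Plagl1 and Slc7a10 lie above 0 and Phactr2 below 0 at all 3 stages, while Frem1 and Tiam2 are below 0 at E13.5 and above 0 at P0.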

How the data were processed

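Tongue RNA was depleted of ribosomal RNA and made into strand-specific (dUTP) libraries with 10 cycles of PCR, per the labels' protocols. Trim Galore 0.4.2, TopHat2 2.1.0 and GRCm38 are named in the submitters' processing notes. The counting of reads, and on which strand, is unstated in the sources used here. Reads of overlapping or antisense genes may be mixed. The authors deposited log2 RPM values per gene, with no correction for gene length. A gene with 0 reads is set to 0.9 reads in the deposited log2 values. Whole reads were recovered from the steps between values (100% whole within 0.05 of a read, below 1000 reads).

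Genes at log2 RPM 0 or more in at least 3 of 6 columns entered a linear model in limma 3.58.1 (R 4.3.3) (mean-variance trend, Benjamini-Hochberg over all tested genes). The members and the 38 gene lists were chosen with earlier results of these data known, and no list was tested. Named genes are those called, the 15 of smallest p in each direction and the 8 of largest change above a mean of 4 log2 RPM (both without overlap), for each list the 3 of smallest p and the 2 of highest level, tested genes next to Plagl1, and the 5 of smallest p in each stage contrast. Genes of the libraries that stood apart, markers and other list members were named after their values were seen. Tested on simulated data for the newborn comparison (12489 genes), the fit recovered 65% of 100 genes changed by a log2 of 1 and 96% of 100 changed by 2, with 6 false calls. The simulated spread was independent between genes and libraries. It lacked the difference shared by the libraries that stood apart, so these rates need not hold for the real data. No library pair was a duplicate (smallest chi-square of counts over degrees of freedom 10.96). P-values measure only the spread between these libraries. Some genes that the rule takes are not reported here. Alternatives were other filters, scalings, variance models, voom, a replicate block and fewer libraries. The SE and SD describe 3 libraries per genotype.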

Additional observations from a re-analysis of the deposited data

How the results depend on the processing

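The newborn comparison called 2 genes, and 1 with no filter on low values, median centring, quantile normalization or RPM of listed reads (Phactr2 each time). It called 0 with no mean-variance trend, with robust trend or with voom on whole reads, where 406 genes were at an unadjusted p under 0.05, against 412 in limma. Leaving out 1 library gave 0 to 4 calls: 0 without wild type replicate 1, wild type replicate 2, biallelic replicate 2 or biallelic replicate 3, 2 without biallelic replicate 1 (Mmrn1 among them) and 4 without wild type replicate 3. Without biallelic replicate 1 and wild type replicate 2 together the count was 1 (Mmrn1). For P0 minus P20 the count of 0 became 1 with genes at 5 RPM or more or with median centring, and ranged from 0 to 1 over leaving out 1 newborn library each (1 without wild type replicate 2); P0 minus E13.5 stayed at 0 in every alternative. All 93 genes followed kept their direction over 17 alternatives. This was largely fixed in advance and is no support for them, since they were chosen from these same libraries. Groups without overlap cannot change direction when a single library is left out, and some alternatives change only the variance and not the log2 fold change. The log2 fold change stayed between 0.99 and 1.10 for Plagl1 and between -1.39 and -1.18 for Phactr2 without single libraries.

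With the replicate block the newborn count was 0, with adjusted p-values of 0.509 for Plagl1 and 0.484 for Phactr2. Same-numbered libraries had correlations of deviations of -0.34, -0.49 and 0.36, and biallelic replicate 1 went with wild type replicate 2 (0.68). With 3 libraries per genotype, these values cannot decide whether libraries of equal number share a litter or batch.

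With 3 libraries per genotype, the precision is limited: the median SD between libraries was 0.15 log2 in the biallelic and 0.19 log2 in the wild type group.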

Other observations

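Genes were also sorted by their change between stages in wild type tongues, with no newborn library used; this grouping was chosen after the data were seen. Of 837 tested genes that were higher at P20 than at E13.5 by a log2 of 4 or more, 554 had lower means in the newborn biallelic tongues (66.2%, against 39.3% of all tested genes), and the median log2 fold change was -0.10. At an unadjusted p under 0.05, 64 of them were lower (7.65%, against 1.31% of all) and 8 higher. Of 143 genes that were higher at E13.5 by as much, 98 had higher means (68.5%, median 0.09), with 17 higher (11.9%, against 1.99% of all) and 1 lower at that p. Leaving out the muscle and energy lists kept medians of -0.09 for 782 late genes and 0.08 for 137 early genes. The mean level of the late genes was 3.15, 3.07 and 3.20 log2 RPM in wild type and 2.94, 3.17 and 2.94 log2 RPM in biallelic replicates 1 to 3, so biallelic replicate 2 lay inside the wild type range. The early genes were at 2.06, 2.02 and 2.12 log2 RPM in wild type and at 2.34, 2.13 and 2.06 in biallelic replicates, with biallelic replicate 1 above the rest. Without biallelic replicate 1 and wild type replicate 2, 555 of the 837 late genes were lower (median -0.10), while 69 of the 143 early genes were higher and 74 lower (median -0.0060). With a log2 difference of 2 in place of 4, the medians were -0.02 for 2239 late and 0.05 for 964 early genes.

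Promoter windows were sorted by the letters GGGGCCCC, also after the data were seen. Of 161 tested genes with a match, Slc7a10 among them, 121 had higher means in the newborn biallelic tongues (75.2%, median 0.07). Of 8630 without a match 5228 did (60.6%, median 0.04). With the shorter GGGGCCC on either strand, which 6.66% of the windows of 300 bases hold, 670 of 988 were higher (67.8%, median 0.05). Slc7a10 was also among the 988. Without biallelic replicate 1 and wild type replicate 2, 97 of the 161 and 4362 of the 8630 were higher. Base composition of the windows was not matched.

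Mmrn1 had reads in every E13.5 library, at 49 to 233 reads. At P20 biallelic replicate 3 had 0 reads of it, and the other 5 libraries had 225 to 605. Apob and Apoa1, which encode apolipoproteins of liver and gut, had 482 and 465 reads in newborn wild type replicate 2, 71 and 80 in wild type replicate 3 and at most 21 in the other 4 newborn libraries.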
